A study of Ictidomys tridecemlineatus with 5 samples.

Results

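The junctions, surface receptors and secreted proteins that define blood vessel walls were followed through 9 genes, under the Swiss-Prot entry names PECA1, VWF, CADH5, CLD5, ESAM, PLVAP, ZO1, OCLN and EGLN. They are called here by their gene symbols PECAM1, VWF, CDH5, CLDN5, ESAM, PLVAP, TJP1, OCLN and ENG. A transcript was assigned to a gene when the entry name of its best Swiss-Prot hit, without the species code, was one of these. All 9 genes were found in both tissues, of 13949 Swiss-Prot names present in both tables, with 16 transcripts in eye and 28 in retina.

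RNA came from wild-type ground squirrels, Ictidomys tridecemlineatus, in 2 libraries of eye and 3 libraries of retina. Each library preparation was a pool of 4 animals per the labels, which give no age, sex or season and do not say whether libraries share animals. The labels do not say which parts of the eye were kept in the eye samples, which hold photoreceptor, corneal and lens transcripts. Levels are RPKM (reads scaled to transcript length and to the total of reads), with 1 value per transcript and tissue. Reads may have been counted on several transcripts, as given below, which limits comparison between genes. With no value per library there is no replicate check and no test between the tissues, and the intervals given are 95% Poisson intervals that cover counting error only.

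Retinal vessels carry a barrier that restricts passage between blood and neural tissue. Endothelial cells are sealed by tight junctions, in which claudin-5 and occludin span the membrane, ESAM joins neighbouring cells and ZO-1 anchors the complex to actin, and by adherens junctions built on VE-cadherin. The pigment epithelium forms an outer barrier with tight junctions of its own, so occludin and ZO-1 belong to epithelia as well as to endothelium. Vessels of the choroid and ciliary body lack this endothelial barrier and are fenestrated, and PLVAP forms the diaphragms that span the fenestrae.

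The labels could be checked against markers of other ocular tissues. The corneal keratins K1C12, K1C15 and K2C5 and the lens crystallins CRYAA and CRBB2 stood at 523 to 2743 RPKM in eye and at 0.299 to 1.29 RPKM in retina. The photoreceptor proteins ARRC, ARRS and RECO summed to 2346 RPKM in eye and 4707 in retina. Some eye levels came from short transcripts, of 139 bases for ARRC, 174 for RECO, 147 for CRYAA and 103 for K1C15. The log2 difference was -0.96 for ARRC but 0.26 with best-matching transcripts. For RECO it was -1.11 but 0.97 with the longest transcripts. ARRS, at -0.66, kept its sign under all 14 alternatives. The retina table was not free of pigment epithelium or blood, with RPE65 at 17.5 RPKM against 238 in eye and the hemoglobin HBB at 142 against 4897. The values were scaled to totals of 264219334 reads for eye and 355988270 for retina, as recovered from the values, so that 1 RPKM on a transcript of 1000 bases stands for 264 and 356 reads.

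The comparison set eye samples, which also hold photoreceptor transcripts, against retina, so the eye values are not levels of the eye without retina. PLVAP was the most abundant of the 9 genes in eye and the least abundant in retina. PECAM1, CDH5, VWF, ENG and OCLN stood 3.00 to 5.10 times higher in eye. The tight junction genes CLDN5 and TJP1 and the adhesion molecule ESAM differed far less, and ESAM alone had the higher value in retina. A gene is called higher in a tissue at a 2-fold difference of RPKM + 1, a mark that was known from earlier work on these values. By this mark 6 of the 9 genes were higher in eye, none was higher in retina and 3 lay within 2-fold. Among the 13383 proteins that reached 1 RPKM in at least 1 tissue, 11.8% were called higher in eye and 3.60% higher in retina. The median difference, as log2(eye RPKM + 1) minus log2(retina RPKM + 1), was 1.41 over the 9 genes and -0.0035 over all proteins. All 9 passed the minimum of 1 RPKM, CDH5 and PLVAP only through their level in eye. In bulk tissue, fewer cells of a type and less RNA per cell cannot be told apart.

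**Figure D1:**
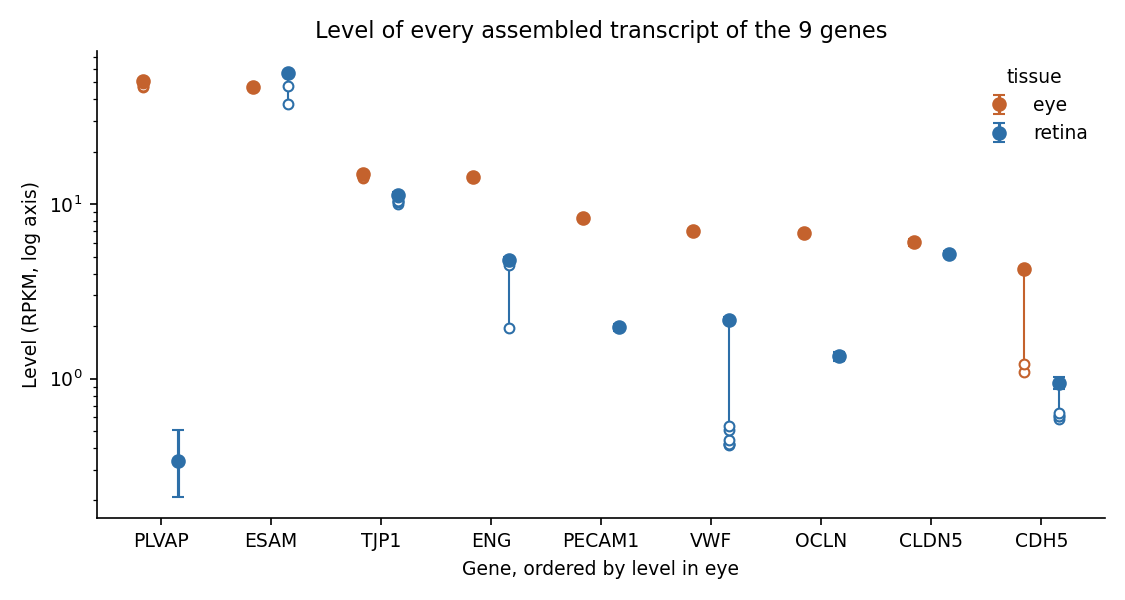
Level in RPKM (log axis) of every assembled transcript of the 9 genes in eye (orange) and retina (blue), with filled points for the highest transcript and its 95% Poisson interval and open points for the other transcripts. PLVAP stands at 46.8 to 50.9 RPKM in eye and at 0.336 in retina, whereas ESAM, TJP1 and CLDN5 are at similar levels in both tissues.

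The plot of all transcripts shows the order of the genes within each tissue. In eye, PLVAP and ESAM led, followed by TJP1, ENG, PECAM1, VWF, OCLN, CLDN5 and CDH5. The 4 PLVAP transcripts in eye ranged from 46.8 to 50.9 RPKM and enclosed the value of ESAM, 47.2, so the order of these neighbours depended on the transcript. VWF (interval 6.95 to 7.17 RPKM) and OCLN (6.68 to 7.04) could not be separated in eye by counting error. In retina ESAM led, followed by TJP1, CLDN5, ENG, VWF, PECAM1, OCLN, CDH5 and PLVAP. ENG in retina had 3 transcripts between 1.96 and 4.80 RPKM, so its place just below CLDN5 also depended on the transcript. The genes were moderately expressed in eye, with a median of 8.29 RPKM against 8.80 over all shared names, and low in retina, with a median of 2.17 against 8.27.

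PLVAP showed the widest gap. Its eye transcripts had 1674 to 2229 bases, and each aligned with 445 residues of human PLVAP. The only PLVAP transcript in retina had 184 bases and 58 aligned residues, and its level of 0.336 RPKM (interval 0.210 to 0.509) rested on 22 reads. The highest transcripts stood at 50.9 and 0.336 RPKM, a ratio of 152 (interval 99.8 to 230), and the difference was 5.28 on the log2 scale. It lay at percentile 99.7 of the differences of all proteins. With transcripts under 200 bases left out, PLVAP had no level in retina. The retina value sat at percentile 1.81 of all names in that table, and the eye value at percentile 90.4.

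CLDN5, the main claudin of barrier endothelium, had a level of 6.04 RPKM in eye (interval 5.78 to 6.32) and 5.19 in retina (5.00 to 5.38). Each tissue had 1 transcript, of 1227 and 1531 bases, and both aligned over the same 218 residues with the same bit score of 321. The difference was 0.19 (interval 0.12 to 0.26), and it was -0.049 after scaling to an equal total, so its direction was not settled. Within eye, PLVAP stood 8.43 times above CLDN5 (interval 8.05 to 8.82). Within retina the order was turned, with CLDN5 15.4 times above PLVAP (interval 10.2 to 23.5). The assignment to claudin-5 was less close than for most claudins. Similarity to the human protein was 75% in both tissues, against a median of 90% over the best hits of the 12 other claudin names with mammalian hits in eye and 93% over the 8 in retina, and 1 claudin in each tissue had a lower value.

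ESAM, an immunoglobulin-type adhesion molecule of endothelial tight junctions, was abundant in both tissues. In eye it had 1 transcript at 47.2 RPKM (interval 46.6 to 47.8). In retina it had 3, at 56.8, 47.9 and 37.8 RPKM. The longest in each tissue, of 1923 and 1912 bases, covered the same 393 residues and were also the highest. The difference was -0.26 (interval -0.28 to -0.24), and the 3 retina transcripts ranged from below to above the eye value. The difference stayed negative under all 14 alternatives tried, from -0.098 with length-weighted means to -2.21 with sums scaled to an equal total.

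Relative to PECAM1, VWF and CDH5, ESAM stood high in retina. It was 28.9 times PECAM1 there (interval 27.7 to 30.1) and 5.69 times PECAM1 in eye (5.55 to 5.84). Its level lay at percentile 92.0 of all names in retina, while PECAM1 lay at percentile 19.8, VWF at 21.1 and CDH5 at 11.3. CLDN5 was likewise 2.64 times PECAM1 in retina (interval 2.50 to 2.79) and 0.729 times in eye (0.693 to 0.766). ESAM was not alone in its high level. Of the listed genes given below, the caveolar gene CAV1 stood at 54.3 RPKM in retina and the endothelial identity gene VGFR2 at 29.8. Endothelial identity genes ranged widely there. EGFL7 was at 9.22, TIE2 at 1.01, ICAM2 at 0.628, CLC14 at 0.582 and ERG at 0.515.

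TJP1, which encodes the scaffold ZO-1, had 3 transcripts in eye at 14.2 to 14.99 RPKM and 6 in retina at 10.03 to 11.4. The transcript ranges of the tissues did not overlap. Transcripts of 1 gene share sequence and are not replicates. The difference of the highest was 0.37 (interval 0.33 to 0.41) and 0.11 after scaling to an equal total. It was -0.54 with sums over transcripts, of which retina had more. The longest transcripts, of 6410 and 6063 bases, aligned over 1770 and 1761 residues of the dog protein, with similarities of 90% and 83%.

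OCLN, whose product occludin spans the membrane at tight junctions, differed from the scaffold it binds. It had 1 transcript per tissue, at 6.86 RPKM in eye (interval 6.68 to 7.04) and 1.35 in retina (1.27 to 1.42). Both covered the same 524 residues, and the difference was 1.74 (interval 1.69 to 1.80), a ratio of 5.10. TJP1 stood 2.19 times above OCLN in eye and 8.45 times above it in retina. Beside this result, all 4 corneal epithelial markers were higher in eye or found there only, with summed levels of 3955 RPKM in eye and 1.96 in retina and P63 in the eye table only. The 4 pigment epithelial markers summed to 614 and 359 RPKM, with 2 at least 2-fold higher in eye and 2 within 2-fold. RLBP1 was the largest part of both sums, at 347 and 323 RPKM, whereas RPE65 was at 238 and 17.5. The part of these epithelia in the OCLN difference was not tested.

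PECAM1, an adhesion molecule of endothelium, platelets and leukocytes, stood at 8.29 RPKM in eye (interval 8.10 to 8.48) against 1.97 in retina (1.89 to 2.05). Here too each tissue had 1 transcript over the same 740 residues. The difference was 1.65 (interval 1.60 to 1.70) and the ratio 4.22. CDH5 encodes VE-cadherin, the adherens junction protein of endothelium. Its longest eye transcript, of 3943 bases and 786 aligned residues, was at 4.25 RPKM, and 2 short ones were at 1.22 and 1.09. In retina 5 pieces ranged from 0.586 to 0.948 RPKM. The interval of the highest retina piece (0.874 to 1.03) overlapped that of the lowest eye piece (0.853 to 1.37). Pieces of 1 gene are not replicates. The difference was 1.43 (interval 1.36 to 1.50). By the highest transcripts, CDH5 was at 0.513 times PECAM1 in eye (interval 0.494 to 0.532) and 0.482 times in retina (0.441 to 0.527), intervals that overlapped. The retina ratio rested on the CDH5 piece at 0.948 RPKM, which aligned over 95 residues. The other retina pieces were at 0.586 to 0.636 RPKM, so the likeness of the ratios depended on the piece.

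VWF, the clotting glycoprotein that endothelium and platelets store and release, was assembled in eye as 1 transcript of 8761 bases that aligned over 2813 residues, at 7.06 RPKM. In retina it was in 7 pieces. The longest, of 2736 bases and 871 residues, was at 2.17 RPKM and the others ranged from 0.414 to 0.535. The difference was 1.35 (interval 1.30 to 1.40) by the highest piece and 1.81 by the length-weighted mean of all pieces, in which the 6 lower pieces count too. ENG, or endoglin, is the endothelial co-receptor for TGF-beta and BMP ligands. It stood at 14.4 RPKM in eye on 1 transcript of 5673 bases and at 4.80, 4.48 and 1.96 RPKM on 3 transcripts in retina. The difference was 1.41 (interval 1.37 to 1.45).

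PECAM1 and VWF are also made by platelets and their precursors, and PECAM1 by leukocytes. Of 5 platelet markers 4 were found, with summed levels of 57.3 RPKM in eye and 3.41 in retina. PLF4, GP1BB and CXCL7 were in the eye table only, and GP1BB at 50.5 RPKM made up most of the eye sum. ITA2B, the only platelet marker in both tables, was within 2-fold, at 3.29 RPKM in eye and 3.41 in retina. Of 5 macrophage and microglia markers, 3 were at least 2-fold higher in eye, 1 was within 2-fold and CSF1R was in the retina table only, with sums of 39.1 and 12.7 RPKM. The 3 red blood cell markers summed to 8873 and 257 RPKM. The 7 pericyte and smooth muscle markers summed to 384 and 92.2 RPKM, and ACTA, at 257 and 74.9 RPKM, made up most of both sums. DESM and CNN1 were in the eye table only and 3 were at least 2-fold higher in eye. The 2 within 2-fold were RGS5, at 14.9 and 11.6, and CSPG4, at 1.39 and 0.568. The part of these cells in the differences of PECAM1, VWF, CDH5 and ENG was not tested.

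**Figure D2:**
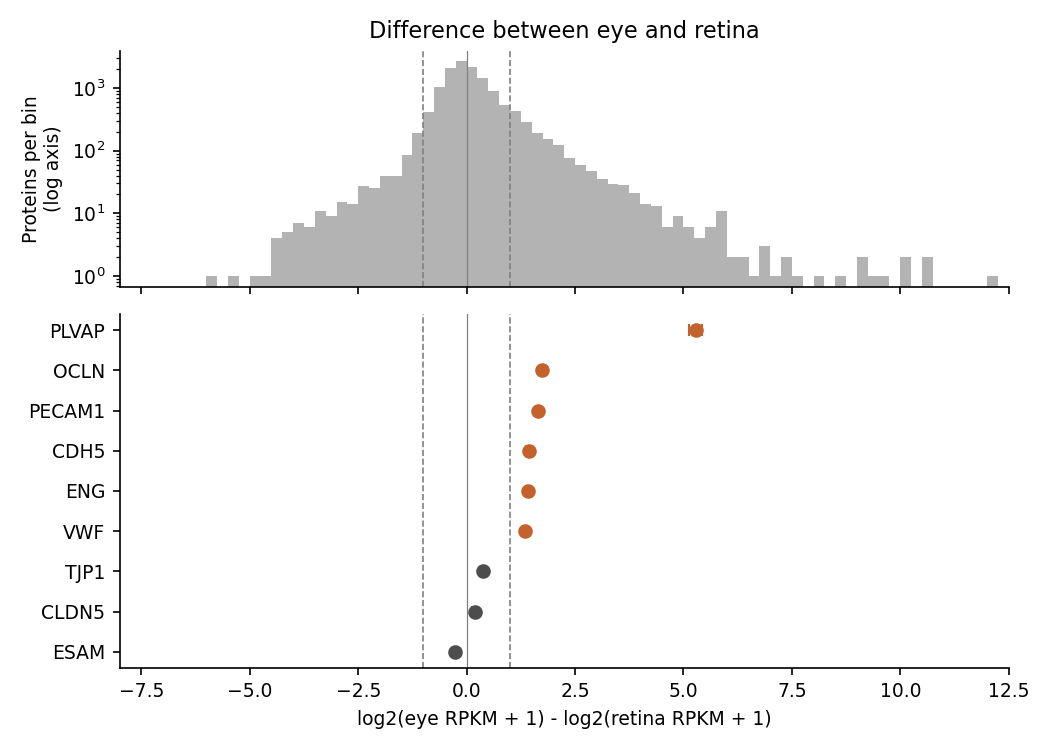
Upper panel, number of proteins (log axis) in bins of the log2 difference between eye and retina, each value taken as RPKM + 1, for all 13383 proteins; lower panel, the 9 genes with 95% counting intervals, orange when at least 2-fold higher in eye and grey within 2-fold. Dashed lines mark 2-fold. ESAM, CLDN5 and TJP1 lie between -0.26 and 0.37, VWF, ENG, CDH5, PECAM1 and OCLN between 1.35 and 1.74, and PLVAP at 5.28.

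Set against the distribution of all proteins, the 9 differences by the highest transcript fell into 3 ranges. ESAM, CLDN5 and TJP1 were at percentiles 29.4, 62.9 and 72.3 of all proteins. VWF, ENG, CDH5, PECAM1 and OCLN were at percentiles 92.4 to 95.02. The gap between TJP1 at 0.37 and VWF at 1.35 contained none of the 9 genes by this measure. It depended on the measure. With sums over transcripts VWF, CDH5 and ENG were at 0.45, 0.79 and 0.33. With a pseudocount of 5 VWF was at 0.75 and CDH5 at 0.64. OCLN and TJP1 lay in different ranges although both proteins are tight junction components shared by epithelium and endothelium, and so did ESAM and PECAM1, both adhesion molecules of the endothelial surface.

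**Figure D3:**
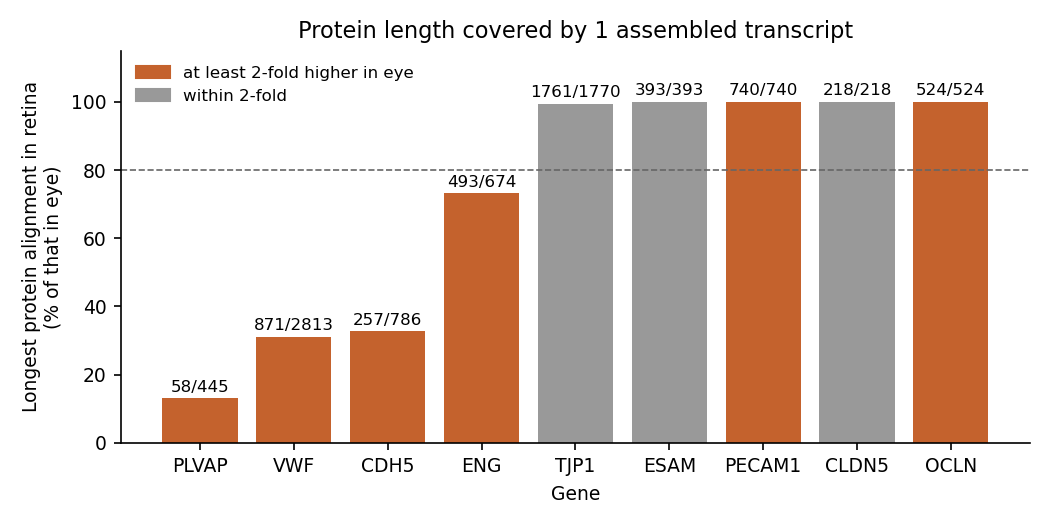
Longest stretch of the Swiss-Prot protein that a retina transcript aligned with, as a percentage of the longest stretch in eye, for each of the 9 genes. Numbers above the bars are aligned residues in retina and eye, and the dashed line marks 80%. PLVAP, VWF, CDH5 and ENG reach 13.03% to 73.1% and the other 5 genes at least 99.5%.

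The assembled proteins gave a second readout, shown as bars of aligned residues. For 4 of the 9 genes, PLVAP, VWF, CDH5 and ENG, the longest alignment in retina was under 80% of that in eye. The reverse held for none of them. Over all 13383 proteins, 10.5% were under 80% in retina and 6.12% in eye, and among the 4438 proteins under 5 RPKM in retina 21.0% were. All 4 genes were under 5 RPKM in retina, as were PECAM1 and OCLN, which were nevertheless covered in full. PLVAP and CDH5 passed the minimum of 1 RPKM only through eye. The 80% mark was chosen after the values were seen. A low level gives fewer reads to assemble, and its part in these shorter alignments was not tested.

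The other genes of the vascular barrier were taken from lists of related genes, with the 9 members left out. The tight junction list had 14 of 18 genes in both tables, of which 9 were at least 2-fold higher in eye, none in retina and 5 within 2-fold, with a median difference of 1.31. The median was lowest, at 0.28, with sums scaled to an equal total. CLD11 and ZO3 were under 1 RPKM in retina and passed the minimum only through eye, so they could only lean towards eye. The shares over all proteins given above, 11.8% and 3.60%, are the background for this list and those that follow. The other 4 genes were in the eye table only, among them the epithelial claudin CLD4 at 22.7 RPKM. ZO2, a scaffold related to ZO-1, stood at 21.0 RPKM in eye against 27.3 in retina. The junctional adhesion molecules JAM1 and JAM3 were at 24.8 and 16.2 RPKM in eye and 6.23 and 9.50 in retina. CLD3, the listed gene nearest to OCLN in level, was at 7.18 and 1.10 RPKM. The corneal and pigment epithelial sums given above stand beside this list too.

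Of 10 adherens junction genes, 1 was at least 2-fold higher in eye, near the share of 11.8% over all proteins, which was the desmosomal and adherens junction protein plakoglobin (PLAK) at 25.0 against 11.5 RPKM, and 9 were within 2-fold. The median was 0.66, and -0.099 with sums scaled to an equal total. Beta-catenin, CTNB1, was at 89.1 and 92.5 RPKM and alpha-catenin, CTNA1, at 47.5 and 23.3. N-cadherin, CADH2, which neurons, glia and pericytes use, was at 19.2 and 25.8 RPKM.

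**Figure D4:**
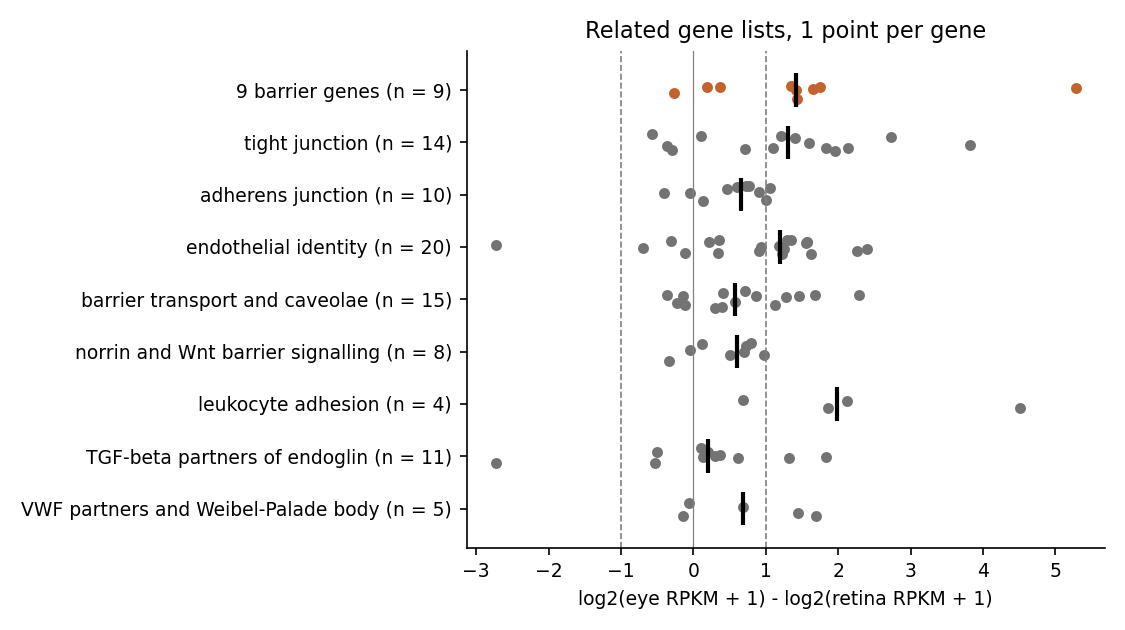
Eye minus retina difference in log2(RPKM + 1) for the 9 genes (orange) and for each related list (grey), 1 point per gene with vertical jitter for visibility, and black bars at the medians. Dashed lines mark 2-fold. Medians are 1.41 for the 9 genes, 1.31 for tight junction genes, 1.20 for endothelial identity genes and 0.20 for TGF-beta partners of endoglin.

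Of 20 endothelial identity genes in both tables, 11 were at least 2-fold higher in eye, 1 in retina and 8 within 2-fold, with a median of 1.20, as the plot of gene lists shows. It was 0.22 when 10 RPKM was required, 0.47 with a pseudocount of 5 and 0.67 with sums scaled to an equal total, and its sign held under all 14 alternatives. ICAM2, ERG, FLI1, ROBO4, MUCEN, CLC14, SOX7, SOX17 and MMRN2 were under 1 RPKM in retina and passed the minimum only through eye. Genes that pass in this way can only lean towards eye, which bears on both the count and the median. TIE2, the angiopoietin receptor, was the listed gene nearest to CDH5, at 4.13 and 1.01 RPKM. EGFL7, secreted by endothelium, was at 22.2 and 9.22 RPKM. VGFR2, the main VEGF receptor of endothelium, had the higher value in retina, at 29.8 against 18.1 RPKM, a difference of -0.69 within 2-fold, with the same sign under all 14 alternatives. PROX1, a transcription factor of lymphatic endothelium that retinal neurons and lens also express, was at 13.7 and 11.6. The lymphatic genes VGFR3, at 0.986 RPKM, and LYVE1, at 1.80, were in the eye table only. Taking the 9 genes' 7 endothelial members together with 7 further defining markers, 10 of 14 were at least 2-fold higher in eye. The other 4, named after their values were seen, were ESAM, CLDN5, VGFR2 and ROBO4, the last at 2.14 and 0.645 RPKM with a difference of 0.93. All 14 are counted above, as members or in the endothelial identity list, so this is not a separate result. CDH5, PLVAP, CLC14, ROBO4, ICAM2 and ERG among them passed the minimum only through eye.

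ACVL1, or ALK1, the receptor that works with endoglin, went the other way from its partner by the highest transcript, at 7.24 RPKM in eye and 53.7 in retina. This difference of -2.73 was 0.84 with best-matching transcripts, since retina had 3 transcripts under this name, so its direction was not settled. Of the 11 TGF-beta and BMP genes that partner with endoglin, 2 were at least 2-fold higher in eye, ACVL1 was higher in retina and 8 were within 2-fold. Their median was 0.20, but -0.043 with equal-total scaling, -0.52 with sums scaled to an equal total and -1.61 with the filter at 10 RPKM, so its direction was not settled.

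Transport and caveolar genes of the barrier had 5 of 15 at least 2-fold higher in eye, none in retina and 10 within 2-fold, with a median of 0.58 that was -0.33 with sums scaled to an equal total. GTR1, the glucose transporter that carries glucose across the barrier, was at 240 and 182 RPKM, but the eye value came from a transcript of 327 bases and the difference of 0.40 was -0.34 with best-matching transcripts. The lactate transporter MOT1 was at 75.3 and 81.6 RPKM and the amino acid transporter chain 4F2 at 62.7 and 37.9. CAV1, the coat protein of caveolae, was at 46.2 and 54.3 RPKM and was the listed gene nearest to ESAM in both tissues. MFS2A, the lipid transporter of barrier endothelium, was at 6.89 and 2.24 RPKM and was nearest to both VWF and PECAM1. The efflux pump of ABCB1 type stood under the names MDR1, at 5.71 and 4.46 RPKM, and MDR1A, at 18.9 RPKM in the retina table only, and its reads may be split between them. The nearest of the 84 listed genes in both tables was taken by the distance between log2(RPKM + 1) values over the 2 tissues. It was ANGP2 for CLDN5, the transferrin receptor TFR1 for TJP1, CGNL1 for ENG and CLD11 for PLVAP, the last at a distance of 1.47 and the others at 0.034 to 0.27.

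Norrin signalling, by which the ligand norrin (NDP) acts on the receptor FZD4 with LRP5 and TSPAN12 (TSN12) to maintain the barrier of retinal vessels, had all 8 genes within 2-fold. Their median was 0.61, but -0.20 with the filter at 10 RPKM and -0.22 with sums scaled to an equal total. NDP was at 9.21 and 11.9 RPKM. CTNB1, given above, is in this list too. LRP5 was at 7.92 and 3.56 RPKM and TSN12 at 8.16 and 5.44.

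**Figure D5:**
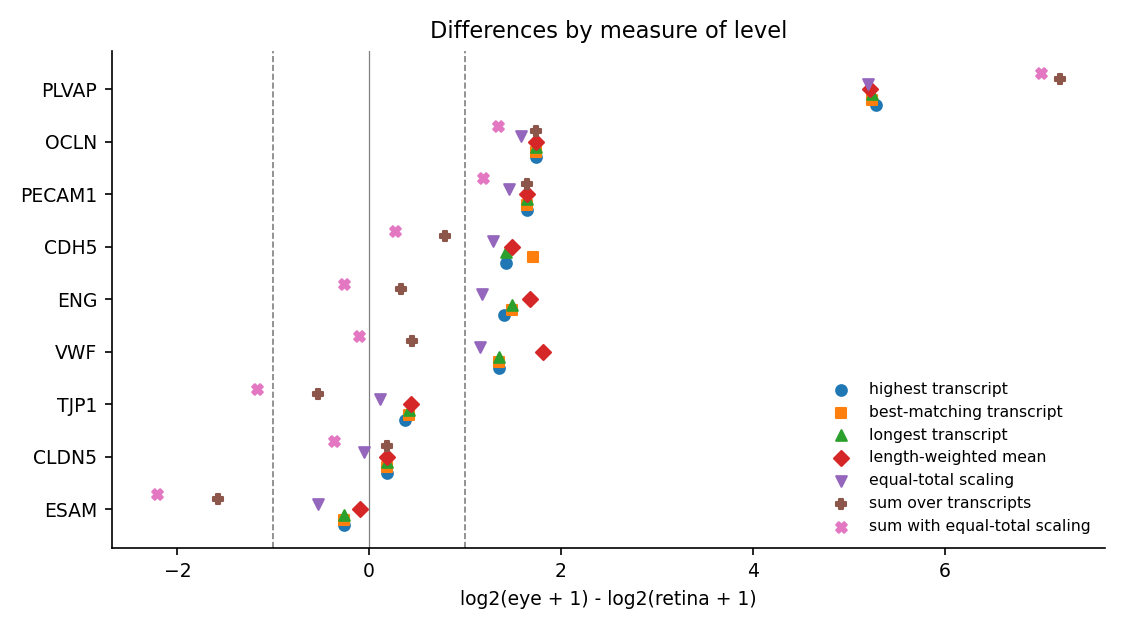
Difference between eye and retina on the log2(level + 1) scale for each of the 9 genes by 7 measures of level or scaling, with dashed lines at 2-fold. PLVAP, OCLN and PECAM1 lie beyond 2-fold by all 7, whereas VWF, ENG and CDH5 do not with sums over transcripts.

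The plot of measures shows how far each gene depended on the way its transcripts were combined. PLVAP was at least 2-fold higher in eye under all 13 alternatives that gave it a value, with differences from 3.39 to 7.20. CLDN5 stayed within 2-fold under all 13 of its alternatives, from -0.37 to 0.22. PECAM1 and OCLN lost the call with a pseudocount of 5 alone, at 0.93 and 0.90. VWF, CDH5 and ENG lost it with that pseudocount and with sums over transcripts, which add every retina fragment (0.45, 0.79 and 0.33). With sums scaled to an equal total VWF and ENG were at -0.10 and -0.27, against a median of -0.63 over all proteins.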

How the data were processed

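Values are RPKM per assembled transcript, deposited by the authors as 1 table per tissue. The file headers say only expression value, and the unit was read from the values: value times length was a whole multiple of 1 constant per table, within 0.01 reads, for 100% of transcripts. The recovered reads summed to 5077626712 in eye and 3745035688 in retina, above the scaling totals, so reads may have been counted on several transcripts. The similarity percent and the bit score of each Swiss-Prot hit are as deposited (named in the file headers). The submitters' processing notes name Bowtie, without a version. Assembler, counting mode and build: not given in the sources used here.

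Both tables of a tissue were joined on transcript ID. A gene's level is that of its highest transcript, a difference is log2(eye + 1) minus log2(retina + 1), and proteins needed 1 RPKM or more in either tissue. No test was possible with 1 value per tissue, and the tissues were assembled and normalized separately, which bears on every difference. Intervals treat reads as independent. The functions were tested on simulated data. Members and lists were chosen with earlier results of these data known. All 9 members are named, with up to 4 genes per list by mean level, genes in 1 table only where 3 or fewer, and the listed gene nearest to each member. Other genes named appear as markers or were named after their values were seen. Gene symbols of all 9 were found in the RefSeq table of mIctTri1.hap1, used for names only. Alternatives changed the transcript chosen, scaling, pseudocount, filter and hits. Python 3.11.15 with pandas 2.3.3 and scipy 1.17.1 was used.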

Additional observations from a re-analysis of the deposited data

How the results depend on the processing

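Of 14 alternatives, 13 were planned and sums scaled to an equal total were added after seeing the data. The count of 6 genes at least 2-fold higher in eye was 3 with sums over transcripts, 3 with sums scaled to an equal total, 1 with a pseudocount of 5 and 2 with a filter at 10 RPKM, which kept 4 genes. It was 5 or 6 under the other 10. The count of 0 higher in retina was 1 with sums (ESAM) and 2 with scaled sums (ESAM and TJP1), where 19.3% and 35.7% of all proteins were. The median of 1.41 was 1.49 with best-matching transcripts, 1.65 with length-weighted means, 0.45 with sums, 1.18 with equal-total scaling, 1.66 with a pseudocount of 0.1, 0.75 with a pseudocount of 5 and 0.89 with the 10 RPKM filter. It turned to -0.10 with scaled sums, with VWF at -0.10 and ENG at -0.27. Over all proteins the median then lay at -0.63, and at -0.25 with equal-total scaling alone. Sums add a read once for each transcript it was counted on. No paired analysis was possible because the tables hold 1 value per tissue, and no library could be left out for the same reason. The PLVAP level in retina rested on 22 reads, in the table with the larger scaling total.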

Other observations

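Of 7 listed adhesion genes through which vessels meet leukocytes, 4 were found in both tables. Of these, 3 passed 2-fold towards eye, as did 11.8% of all proteins, and LYAM3 lay within it. ICAM1 and VCAM1 passed the minimum of 1 RPKM only through eye, so no median is given. CD99, which leukocytes and endothelium use during passage through the vessel wall, stood at 91.0 RPKM in eye against 3.04 in retina. ICAM1 was at 4.45 and 0.510 RPKM and VCAM1 at 4.42 and 0.2505, the latter from a retina transcript of 157 bases. P-selectin, LYAM3, which is stored with VWF, was at 2.40 and 1.12 RPKM.

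Among the partners of VWF and the granules that store it, 2 of 5 passed 2-fold towards eye and 3 lay within it, with a median of 0.69 that was -0.056 with best-matching transcripts. The granule membrane protein CD63 was at 93.3 and 33.6 RPKM, a difference of 1.45 that was -3.45 with best-matching transcripts. RB27A, which guides granules to the cell surface, was at 19.7 and 5.41. Angiopoietin-2, ANGP2, stored in the same granules, was at 5.45 and 5.71 RPKM, and factor VIII, FA8, which VWF carries in blood, at 2.77 and 3.17. ATS13, the protease that cleaves VWF, was found in retina only, at 0.358 RPKM.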
